A study of Mus musculus with 12 samples.

Results

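The genes described here make, sense, move, store and export cholesterol, and they were followed in mesenchymal stem cells (MSCs) and osteocytes given the HIF prolyl hydroxylase inhibitor FG-4592 (Roxadustat). They were chosen by name, as the 34 symbols of a list whose row in the count table exceeded 10 counts in 3 or more of the 12 libraries. All 34 met this rule, among 16484 genes that did so and 56350 genes in the table. They comprised 19 enzymes of synthesis, 4 genes of SREBP2 control, 5 of cholesterol movement and uptake, 5 of the LXR and efflux arm, and 1 of storage. RNAseq had been done on 3 libraries from each of 4 conditions of MPC2, a conditionally immortalized mouse mesenchymal cell line that is a single clone and grows at 33 °C. The MSCs were undifferentiated MPC2 cells at 33 °C, treated for 48 hours with vehicle (DMSO) or with 50 µmol/L FG-4592. For the osteocytes, MPC2 cells had spent 3 weeks at 37 °C with osteogenic media before the same treatments. Temperature, media and differentiation changed together between the cell types and cannot be told apart. The labels number the libraries of a condition from 1 to 3 and do not say whether these came from separate cultures, so the p-values measure the spread between these libraries, which may be technical.

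Cells make cholesterol from acetyl-CoA through mevalonate, isoprenoids and squalene, and the late steps turn lanosterol into cholesterol in the endoplasmic reticulum. The transcription factor SREBP2, the product of Srebf2, turns on the enzymes of this route. When sterols are plentiful, the INSIG proteins hold SREBP2 and its escort SCAP in the endoplasmic reticulum, and when sterols are scarce SCAP carries SREBP2 to the Golgi, where it is cleaved into its active form. The nuclear receptors LXR alpha and LXR beta answer to oxysterols and turn on the exporters ABCA1 and ABCG1, which pass cholesterol to lipoproteins. FG-4592 blocks the hydroxylases that mark HIF for degradation, so that HIF accumulates as it would in low oxygen. All measurements given here are of mRNA, and neither sterol content nor SREBP2 cleavage was measured in these libraries.

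The promoters of 5 members with large responses in at least 1 cell type are shown as the sequence context of the values that follow. Each is a window of 300 bases, from 250 bases before the RefSeq start to 50 bases from it on, read 5′ to 3′ on the strand of the gene from the RefSeq table of GRCm38.p6, the patch release of mm10. Capitals mark the letters of a sterol regulatory element core (TCACNCCAC or CACCCCAC) or of a HIF core (ACGTG or GCGTG) on either strand, and all other bases are in lower case. Hmgcs1 and Cyp51 stand for enzymes that were downregulated in osteocytes alone among the FG-4592 comparisons, Insig1 and Insig2 for the pair whose responses parted in osteocytes, and Abca1 for the efflux arm. For Insig2, which has several starts in the table, the window with HIF core letters nearest to its start was picked for these letters, so their presence there is no finding.
Hmgcs1, chr13:119690101-119690400, plus strand: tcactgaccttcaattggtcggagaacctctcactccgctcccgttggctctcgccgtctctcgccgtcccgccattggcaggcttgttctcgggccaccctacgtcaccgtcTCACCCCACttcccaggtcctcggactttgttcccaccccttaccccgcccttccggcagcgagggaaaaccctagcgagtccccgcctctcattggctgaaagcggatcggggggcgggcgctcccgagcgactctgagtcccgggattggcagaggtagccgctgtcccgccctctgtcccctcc
Cyp51, chr5:4104648-4104947, minus strand: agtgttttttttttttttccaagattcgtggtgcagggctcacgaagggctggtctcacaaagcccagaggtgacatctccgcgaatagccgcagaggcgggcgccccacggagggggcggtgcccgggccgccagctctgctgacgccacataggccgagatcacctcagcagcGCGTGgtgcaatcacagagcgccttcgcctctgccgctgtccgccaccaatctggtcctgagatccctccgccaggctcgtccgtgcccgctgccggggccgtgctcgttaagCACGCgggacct
Insig1, chr5:28071162-28071461, plus strand: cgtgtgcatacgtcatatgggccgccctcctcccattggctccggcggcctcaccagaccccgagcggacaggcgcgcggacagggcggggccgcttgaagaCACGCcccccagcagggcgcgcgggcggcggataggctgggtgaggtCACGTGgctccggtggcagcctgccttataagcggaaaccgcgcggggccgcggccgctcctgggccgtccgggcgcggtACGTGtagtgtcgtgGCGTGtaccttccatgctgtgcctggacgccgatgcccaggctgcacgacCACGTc
Insig2, chr1:121327975-121328274, minus strand: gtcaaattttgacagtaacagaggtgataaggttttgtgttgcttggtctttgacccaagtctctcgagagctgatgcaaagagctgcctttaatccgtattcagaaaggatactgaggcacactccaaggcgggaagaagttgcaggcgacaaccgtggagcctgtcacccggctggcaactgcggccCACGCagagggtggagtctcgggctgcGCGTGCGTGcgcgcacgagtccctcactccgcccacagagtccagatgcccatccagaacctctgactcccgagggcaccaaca
Abca1, chr4:53159846-53160145, minus strand: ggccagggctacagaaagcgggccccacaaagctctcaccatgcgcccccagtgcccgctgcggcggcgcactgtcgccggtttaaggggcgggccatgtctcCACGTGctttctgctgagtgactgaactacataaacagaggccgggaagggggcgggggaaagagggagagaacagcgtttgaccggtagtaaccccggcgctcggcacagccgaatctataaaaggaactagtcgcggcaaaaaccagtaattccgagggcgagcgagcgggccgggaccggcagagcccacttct

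In these windows the sterol regulatory element core of Hmgcs1 began 137 bases before the start. The TCACNCCAC form stood in 1.24% of all 32851 promoters of the table and the CACCCCAC form, which overlaps it in Hmgcs1, in 2.87%. Among the 27 members with a promoter in the table, only Acat2 (CACCCCAC alone, 181 bases before the start) and Hmgcs1 held either form. These are 7.41% of the members, against 4.09% of all genes in the table. The letters CCAAT of the factor NF-Y stood in the promoters of 22 of these 27 members, against 41.1% of all genes in the table. A HIF core of either form stood in 18 of the 27 members, against 46.7% of all genes. The windows of Insig1 and Abca1 held the palindrome CACGTG, in which the letters ACGTG are read on both strands. The window of Hmgcs1 held no HIF core. The LXR direct repeat was found in no member and in 0.0152% of promoters. Such matches describe letters only. Other forms of these elements were not searched, so the absence of the letters says nothing of binding within a window or elsewhere.

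Library totals ranged from 52829185 to 68108470 counts, and a count of 0 allowed up to 0.0447 to 0.0545 CPM (counts scaled to the TMM-normalized library size), a floor of 3 counts that covers counting error only. Vehicle-treated osteocyte replicate 1 stood apart from replicates 2 and 3 of its group (mean chi-square per gene 30.3 and 34.3, against 12.9 between the other two and 9.17 to 22 in the other conditions). Without it, FG-4592 raised 2 and lowered 24 of the 34 genes in osteocytes in place of 3 and 22, and 4 differences between the responses were positive and 25 negative in place of 5 and 24. The HIF targets Slc2a1, Ankrd37 and Bnip3 rose in both cell types with FG-4592, Slc2a1 from at most 23.5 CPM in vehicle-treated to 229 to 238 CPM in FG-4592-treated MSCs, and from 13.1 to 15.8 to between 165 and 169.6 CPM in osteocytes. Car9 and Egln3 rose past the test in osteocytes and not in MSCs. There Egln3 lay at the floor with and without FG-4592, and Car9 lay at it with vehicle and had 3, 7 and 0 counts with FG-4592. Of 12 osteoblast and osteocyte markers, Mepe, Pdpn and Sost were at the floor in all 4 conditions, and Dmp1 lay between 9.12 and 13.7 CPM in vehicle-treated and between 1.39 and 2.42 CPM in FG-4592-treated osteocytes. The summed level of this marker list was 6130 to 6570 and 7290 to 7460 CPM in vehicle-treated and FG-4592-treated MSCs, and 7840 to 9730 and 7440 to 9140 CPM in vehicle-treated and FG-4592-treated osteocytes. The sum does not show its members, since with FG-4592 1 of the 9 tested rose and 6 fell in MSCs (median log2 fold change -0.87) and 7 fell and none rose in osteocytes (median -0.83), 4 past both cutoffs in each, where 17.6% of all genes rose and 20.4% fell in MSCs and 21.9% rose and 22% fell in osteocytes. The part of these markers in the results that follow was not tested. Adipocyte markers were present in the osteocyte libraries: all 9 of the 10 that passed the filter on low counts were higher in vehicle-treated osteocytes than in vehicle-treated MSCs, where 26% of all genes were, and Adipoq lay between 7.45 and 8.31 CPM in the MSCs and between 1193 and 1730 CPM in the osteocytes. The 8 chondrocyte markers summed to 83.9 to 93.3 and 148 to 164 CPM in the MSCs and to 115 to 135 and 376 to 456 CPM in the osteocytes, vehicle before FG-4592, with Acan and Hapln1 at the floor throughout. Macrophage and blood markers summed to at most 20.4 CPM, with Adgre1, Tyrobp, Hbb-bs and Hba-a1 at the floor, and endothelial markers to at most 2.66 CPM, with Cdh5, Kdr and Tie1 at the floor.

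FG-4592 lowered the mRNA of most synthesis enzymes in osteocytes. Of the 19 enzymes, 17 were downregulated and none rose (FDR under 0.05), where 22% of all genes tested fell and 21.9% rose in this comparison. The FDR is the Benjamini-Hochberg adjusted p of edgeR's quasi-likelihood test over all genes tested. Past the second cutoff, an absolute log2 fold change above 1, were Hmgcs1, Idi1, Fdps, Cyp51, Msmo1 and Dhcr7, all lower, against 4.26% of all genes. The median log2 fold change of the 19 enzymes was -0.73, that of all genes 0.00. The 2 enzymes that did not pass were Pmvk, phosphomevalonate kinase (-0.18, FDR = 0.128), and Tm7sf2, a sterol 14-reductase (-0.20, FDR = 0.193). With library size alone Pmvk passed (-0.28, FDR = 0.0177). In bulk libraries fewer cells that make an mRNA and less mRNA per cell cannot be told apart.

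**Figure D1:**
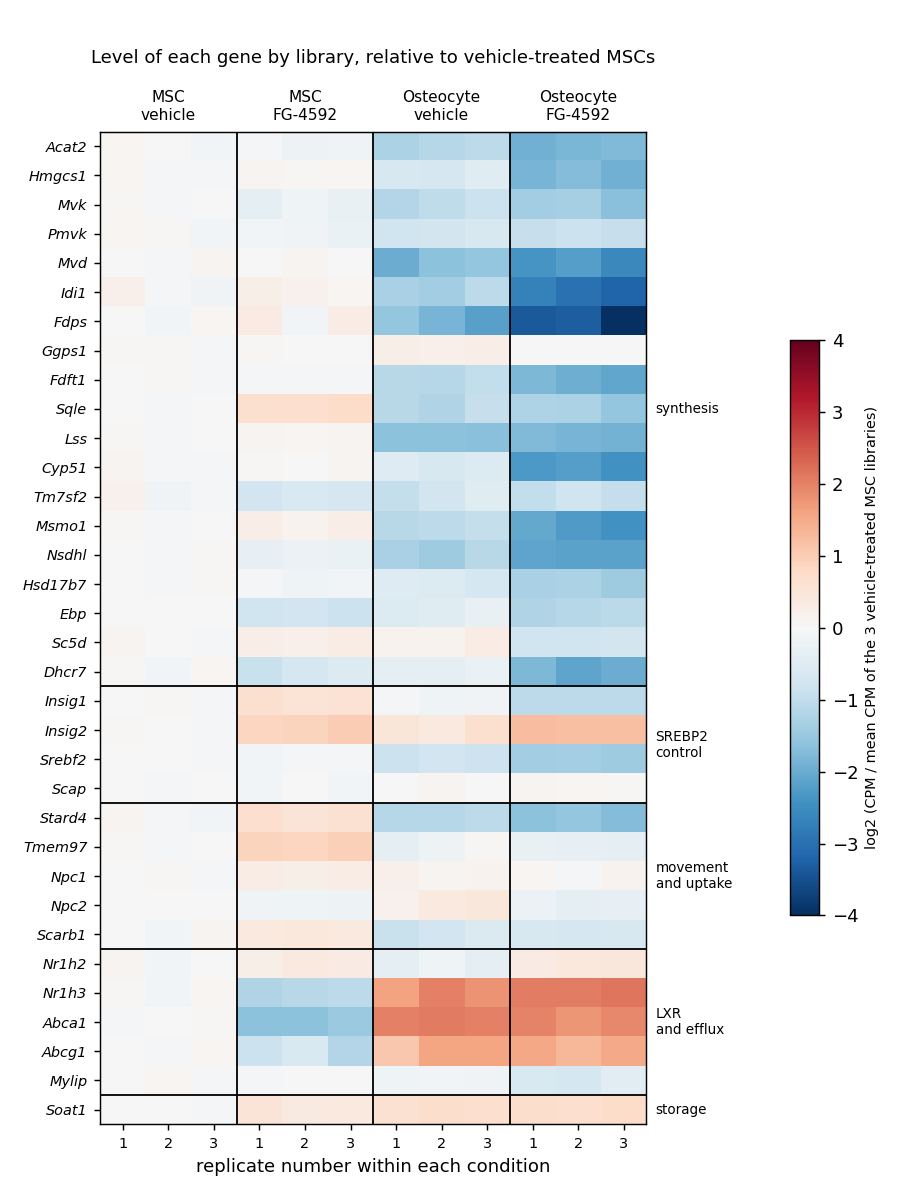
Level of each of the 34 genes (rows, grouped by role) in each of the 12 libraries (columns), as the log2 of its CPM over the mean CPM of the 3 vehicle-treated MSC libraries. In 18 of the 19 synthesis rows, all but Ggps1, the mean is lowest in FG-4592-treated osteocytes, where Idi1 and Fdps lie farthest below, whereas Nr1h3, Abca1 and Abcg1 are blue in FG-4592-treated MSCs and red in osteocytes. The share of all genes with their lowest mean in FG-4592-treated osteocytes was not counted.

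In the steps from acetyl-CoA to isoprenoids, 7 of 8 enzymes fell in FG-4592-treated osteocytes, where 22% of all genes did. Hmgcs1, the cytosolic HMG-CoA synthase (chr13:119690379-119708260), had 212, 206 and 236 CPM in the vehicle-treated and 90.6, 98.7 and 86.8 CPM in the FG-4592-treated osteocyte libraries. The libraries did not overlap, and the level with FG-4592 was 42.2% of that with vehicle (log2 fold change -1.24, SE 0.061, FDR = 1.02e-10). Idi1, isopentenyl diphosphate isomerase (chr13:8885501-8892451), went from 23.2, 21.6 and 27.5 CPM to 8.67, 7.19 and 6.22 CPM, the largest fold change of these steps (-1.71, SE 0.12, FDR = 9.47e-09). Fdps, farnesyl diphosphate synthase (chr3:89093588-89101959), was low, with 2.20, 1.78 and 1.43 CPM in vehicle and 0.631, 0.654 and 0.380 CPM in FG-4592 (-1.70, SE 0.23, FDR = 1.74e-05), and its libraries did not overlap either. Acat2, the cytosolic acetoacetyl-CoA thiolase (-0.69), Mvd, the decarboxylase of the mevalonate route (-0.66), Mvk, mevalonate kinase (-0.45), and Ggps1, geranylgeranyl diphosphate synthase of a side branch (-0.22), fell by less. Because a read pair was counted for every gene it overlapped, values of Fdps (26.7% of its exonic length shared with Gm43738), Hmgcs1 (12.1% with Gm48342) and Idi1 (9.22% with Gm48574) hold shared reads. The 50-base stretches of these genes also occur in part in transcripts of other genes, 26.2% of those of Fdps, 25.3% of Idi1 and 11.6% of Hmgcs1, and 39.1% of those of Acat2 occur in Acat3 or Tcp1. The 3 Gm genes that share exons with these enzymes were too low to be tested.

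From squalene to cholesterol, 10 of 11 enzymes fell in FG-4592-treated osteocytes, where 22% of all genes did. Cyp51, lanosterol 14-demethylase (chr5:4081145-4104746), stood at 113, 105 and 112 CPM in vehicle and at 33.1, 35.0 and 30.2 CPM in FG-4592, the largest fall of the 34 genes in this comparison (-1.75, SE 0.062, FDR = 1.6e-12). Msmo1, a methylsterol monooxygenase of later steps (chr8:64718139-64733792), stood at 75.9, 78.5 and 83.6 CPM and 39.0, 33.9 and 30.1 CPM (-1.21, SE 0.077, FDR = 2.22e-09). Dhcr7, the reductase of the last step (chr7:143823145-143848410), stood at 25.4, 25.4 and 28.0 CPM and 9.54, 7.70 and 8.37 CPM (-1.62, SE 0.10, FDR = 1.88e-09), so that the treated libraries of all 3 enzymes lay below every vehicle library. Sc5d, the sterol C5-desaturase, had 94.3, 94.1 and 105 CPM in vehicle and 48.8, 49.4 and 51.3 CPM in FG-4592 and lay just under the fold cutoff (-0.97, SE 0.059, FDR = 1.29e-09). Sqle, squalene epoxidase, fell by 1.20-fold, from 86.8, 82.5 and 99.2 CPM to 80.0, 78.3 and 65.1 CPM (-0.27, SE 0.076, FDR = 0.00971), and without FG-4592-treated osteocyte replicate 3 its log2 fold change was -0.18 (FDR = 0.055). Fdft1, squalene synthase (-0.87), Nsdhl, which takes a carbon off the sterol ring (-0.85), Hsd17b7, a ketosteroid reductase (-0.73), and Ebp, a sterol isomerase (-0.69), fell by between 1.62-fold and 1.83-fold, and Lss, lanosterol synthase, by 1.13-fold (-0.18, FDR = 0.01). The call of Lss was lost with no filter on low counts (FDR = 0.0727) and with only the 6 osteocyte libraries (FDR = 0.0819), and Tm7sf2 was called without vehicle-treated osteocyte replicate 1 (-0.33, FDR = 0.026) and with library size alone (-0.30, FDR = 0.048). Fdft1 shares 18.8% of its exonic length with Ctsb, whose level was 937 CPM in vehicle-treated MSCs and which fell by 0.32 on the log2 scale in osteocytes (FDR = 4.67e-05), and 26.5% of its 50-base stretches occur in Ctsb or Gm6781. Cyp51 shares 3.76% with Akap9, which rose by 0.57 (FDR = 5.14e-07).

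In MSCs, the same 19 enzymes did not move one way. FG-4592 raised 3, lowered 5 and left 11 that did not pass, where 17.6% of all genes rose and 20.4% fell, and none passed the fold cutoff. The median log2 fold change was 0.01, that of all genes -0.05. Sqle rose from 192, 182 and 192 CPM in vehicle to 296, 299 and 316 CPM in FG-4592, with no overlap (0.69, SE 0.075, FDR = 1.91e-06). Sc5d rose by less, from 91.4, 83.8 and 80.8 CPM to 102, 97.8 and 105 CPM (0.25, SE 0.058, FDR = 0.00244), and so did Msmo1, from 169, 155 and 163 CPM to 193, 179 and 193 CPM (0.21, SE 0.074, FDR = 0.03). Among the enzymes that fell were Ebp (-0.81, SE 0.062, FDR = 3.29e-08), Dhcr7 (-0.71, SE 0.097, FDR = 2.08e-05) and Tm7sf2 (-0.68, SE 0.12, FDR = 0.000185), which act after lanosterol. Nsdhl (-0.27) and Mvk (-0.28) fell by less. Hmgcs1 had 347, 319 and 319.7 CPM in vehicle and 354, 337 and 345 CPM in FG-4592, and Cyp51 had 174, 157 and 156 CPM and 167, 164 and 174 CPM. In both the libraries overlapped, and the 95% intervals of the log2 fold change ran from -0.06 to 0.20 and from -0.08 to 0.18.

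Idi1 (65.3, 54.5 and 51.2 CPM in vehicle and 67.3, 64.8 and 60.5 CPM in FG-4592) and Fdps (6.52, 6.00 and 6.87 and 8.07, 5.94 and 8.01 CPM) also overlapped between the MSC groups, with intervals from -0.06 to 0.41 and from -0.21 to 0.58. Dhcr7 went from 34.2, 30.8 and 35.2 CPM to 18.0, 20.6 and 22.8 CPM in MSCs. Some of the smallest changes were not called without single libraries. The call of Mvk was lost without any 1 of vehicle-treated MSC replicates 1, 2 or 3, FG-4592-treated MSC replicates 1 or 3 or vehicle-treated osteocyte replicate 2 (-0.27 to -0.23, FDR 0.0502 to 0.115). That of Msmo1 was lost without vehicle-treated MSC replicate 2 or FG-4592-treated MSC replicates 1 or 3 (0.20 to 0.21, FDR 0.0698 to 0.0911), with upper-quartile factors (0.19, FDR = 0.054) and with library size alone (0.13, FDR = 0.177), and Idi1 was called without vehicle-treated MSC replicate 1 (0.31, FDR = 0.0474). Scaled to library size alone, under which the median of all genes in MSCs was -0.13, 10 of the 34 genes rose and 14 fell in MSCs, in place of 11 and 9.

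The difference between the responses was tested as an interaction. It was negative, meaning a lower response in osteocytes, for 15 of the 19 enzymes and positive for 1, where 11% and 13.3% of all genes were so called. Hmgcs1 (-1.32), Idi1 (-1.88), Fdps (-1.88), Cyp51 (-1.80), Msmo1 (-1.42) and Sc5d (-1.22) were past both cutoffs, as were 1.07% of all genes in this direction. Tm7sf2 had the positive difference (0.48, FDR = 0.0429), but its call was lost without each of 11 of the 12 libraries in turn, all but vehicle-treated osteocyte replicate 3 (0.32 to 0.52, FDR 0.0516 to 0.161). The call of Ggps1 (-0.23, FDR = 0.0276) was lost without FG-4592-treated MSC replicates 1 or 3 or FG-4592-treated osteocyte replicate 1 (-0.23 to -0.22, FDR 0.0525 to 0.0656). It was also lost with no filter on low counts (-0.22, FDR = 0.159). For Mvk, Pmvk and Ebp the interaction did not pass, with 95% intervals from -0.45 to 0.10, from -0.29 to 0.25 and from -0.07 to 0.30. Of the 34 genes, Insig1, Msmo1, Sc5d, Sqle and Stard4 rose in MSCs and fell in osteocytes, a pattern that 1.21% of all genes showed.

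**Figure D2:**
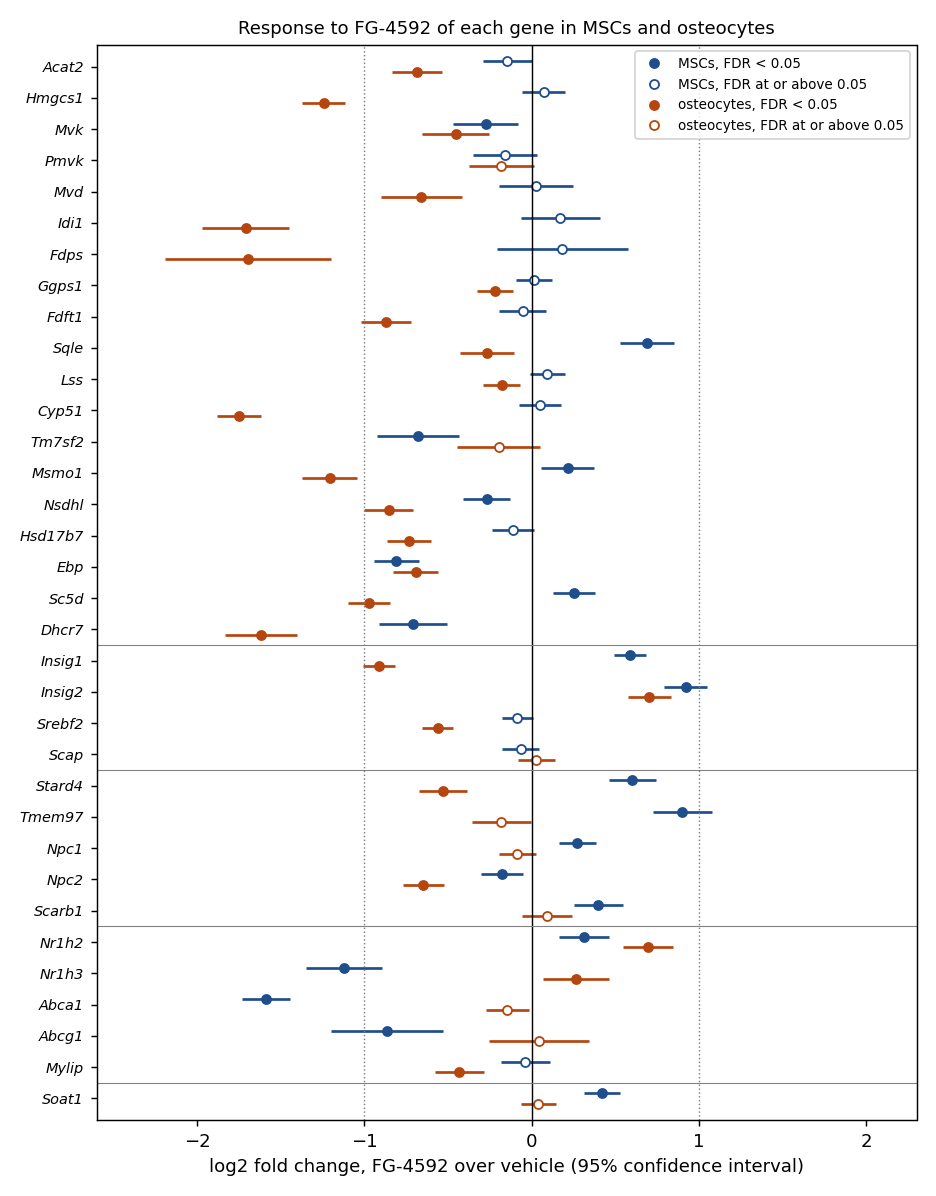
Log2 fold change of FG-4592 over vehicle for each of the 34 genes in MSCs (blue) and osteocytes (orange), with 95% confidence intervals. Filled points passed the FDR of 0.05, open points did not, and dotted lines mark an absolute log2 fold change of 1. Orange points of the synthesis genes lie left of 0, down to -1.75 for Cyp51, while the blue points lie on both sides, and the order is turned for Nr1h3, Abca1 and Abcg1.

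Summed per exonic length, the 19 enzymes held 414 to 442 RPKM (CPM per kilobase of exon) in the vehicle-treated and 420.3 to 429 RPKM in the FG-4592-treated MSC libraries, which overlapped. Osteocytes held 245 to 270.2 RPKM with vehicle and 134 to 143 RPKM with FG-4592, and these ranges lay apart from each other and from those of the MSCs. Hmgcs1 gave the largest share of this sum, with 71.6 ± 3.48 RPKM (SD, n = 3) in vehicle-treated MSCs and 20.0 ± 1.32 in FG-4592-treated osteocytes. In 18 of the 19 enzymes the lowest mean level of the 4 conditions was that of FG-4592-treated osteocytes, Ggps1 being the exception. How many of all genes were lowest there was not counted. Proliferation markers moved with the order of the summed levels. The 8 of them summed to 1070 to 1130 CPM in vehicle-treated and 983 to 1110 CPM in FG-4592-treated MSCs, to 481 to 580 CPM in vehicle-treated and to 189 to 319 CPM in FG-4592-treated osteocytes, none at the floor. With FG-4592, 7 of the 8 fell in osteocytes, and in MSCs 5 fell and 1 rose, where 22% of all genes fell in osteocytes and 20.4% fell and 17.6% rose in MSCs. Their part in the fall of the enzymes was not tested.

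The 4 genes that control SREBP2 did not share a direction. Srebf2 itself had 200.0, 200.1 and 191 CPM in vehicle-treated and 183, 189 and 186 CPM in FG-4592-treated MSCs, a log2 fold change of -0.09 that did not pass (FDR = 0.131) although the libraries did not overlap. This fall passed with upper-quartile factors (-0.12, FDR = 0.0446) and with library size alone (-0.17, FDR = 0.00418). In osteocytes it went from 109, 115 and 112 CPM to 75.5, 77.6 and 74.2 CPM (-0.56, SE 0.043, FDR = 2.67e-08), and the interaction was -0.48 (FDR = 3.46e-05). Scap had 77.1, 72.7 and 76.7 and 69.8, 76.9 and 69.7 CPM in the MSCs and 75.7, 81.8 and 76.3 and 80.7, 79.6 and 78.0 CPM in the osteocytes, vehicle before FG-4592. It passed the test in neither response (-0.07 and 0.03, with 95% intervals from -0.18 to 0.05 and from -0.08 to 0.14), though with library size alone the fall in MSCs did (-0.15, FDR = 0.0367). Scap shares 13.2% of its exonic length with 5830462I19Rik, which was not tested.

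Insig1 and Insig2, whose products both hold SCAP in the endoplasmic reticulum, rose together in MSCs and parted in osteocytes. Insig1 is known as a target of SREBP2. It had 144, 152 and 143 CPM in vehicle-treated and 227, 216 and 217 CPM in FG-4592-treated MSCs, all treated libraries being higher (0.59, SE 0.044, FDR = 2.67e-08). In osteocytes it had 138, 129.9 and 133 CPM and 71.6, 71.4 and 70.4 CPM, all treated libraries being lower (-0.91, SE 0.045, FDR = 1.04e-10). The interaction was the most significant of the 34 genes (log2 difference -1.50, FDR = 2.45e-10). Insig2 had 115, 112 and 108 CPM and 203, 205 and 225 CPM in the MSCs (0.92, SE 0.061, FDR = 4.99e-09) and 158, 145 and 173 CPM and 260.3, 259 and 255 CPM in the osteocytes (0.70, SE 0.06, FDR = 9.39e-08). It rose in both cell types without overlap. Its interaction of -0.22 did not pass (95% interval -0.40 to -0.04, FDR = 0.0782), but it passed with DESeq2 (FDR = 0.037), without the genes that share exonic bases (FDR = 0.025) and without vehicle-treated MSC replicate 1 (-0.28, FDR = 0.0389) or vehicle-treated osteocyte replicates 1 (-0.27, FDR = 0.0349) or 2 (-0.32, FDR = 0.00792).

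**Figure D3:**
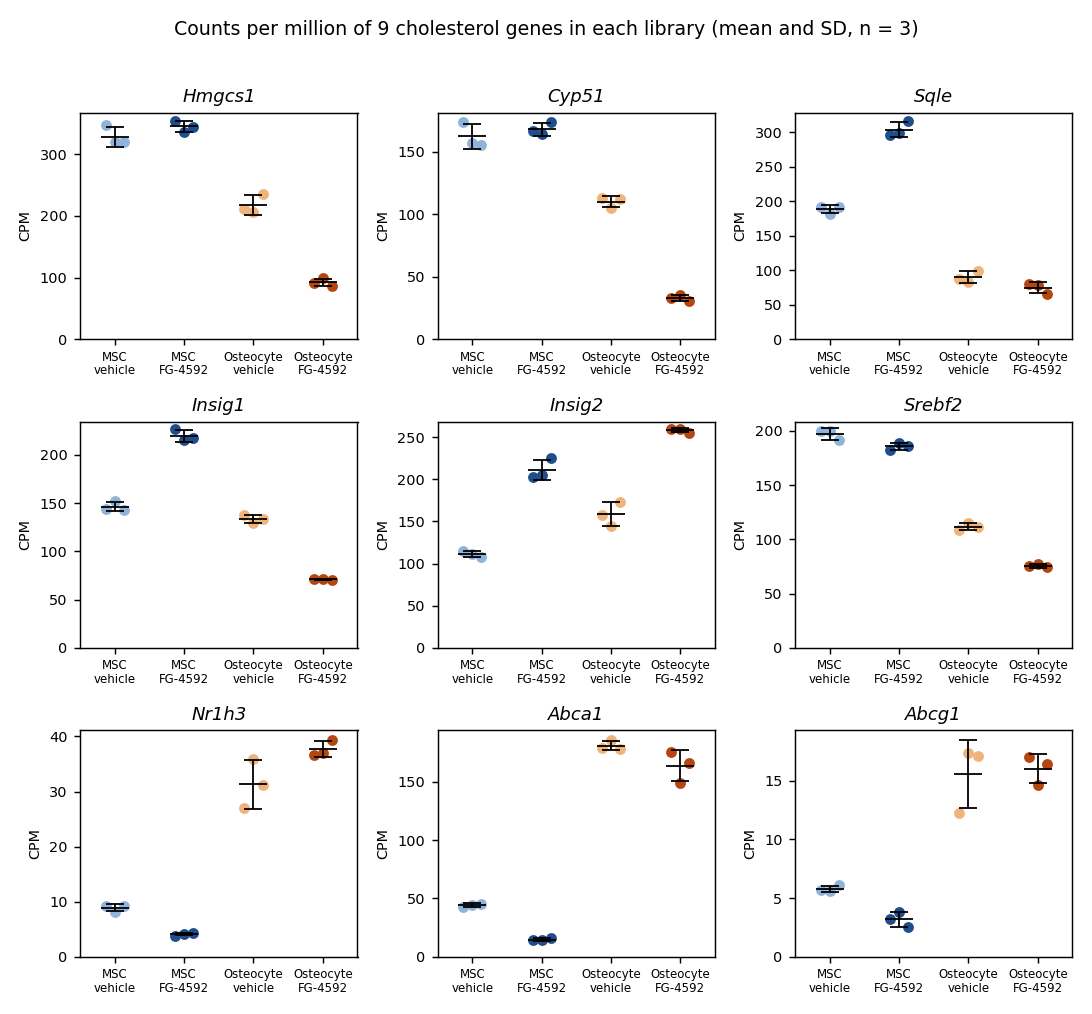
CPM of 9 of the genes in each library, by condition, with the mean (long bar) and SD (error bar, n = 3), each axis starting at 0. Insig1 is highest in FG-4592-treated MSCs and lowest in FG-4592-treated osteocytes, Insig2 is highest in FG-4592-treated osteocytes, and Abca1 falls with FG-4592 to 14.0 to 15.8 CPM in MSCs while it stays between 149 and 186 CPM in osteocytes.

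Per exonic length, Insig2 stood at 0.65 to 0.71 of Insig1 in vehicle-treated MSCs and at 0.80 to 0.92 with FG-4592. In vehicle-treated osteocytes this ratio was 0.99 to 1.16, and in FG-4592-treated osteocytes 3.23 to 3.24. The ranges of the 4 conditions did not overlap. The Insig1 window shown above holds HIF core letters at several places, the palindrome 101 bases before the start among them. The Insig2 window, picked for such letters, holds them 61, 34 and 30 bases before its start, whereas another of the 3 windows of Insig2 holds none and the other a single core 141 bases before its start. Neither window shown holds a sterol regulatory element core of the forms searched.

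**Figure D4:**
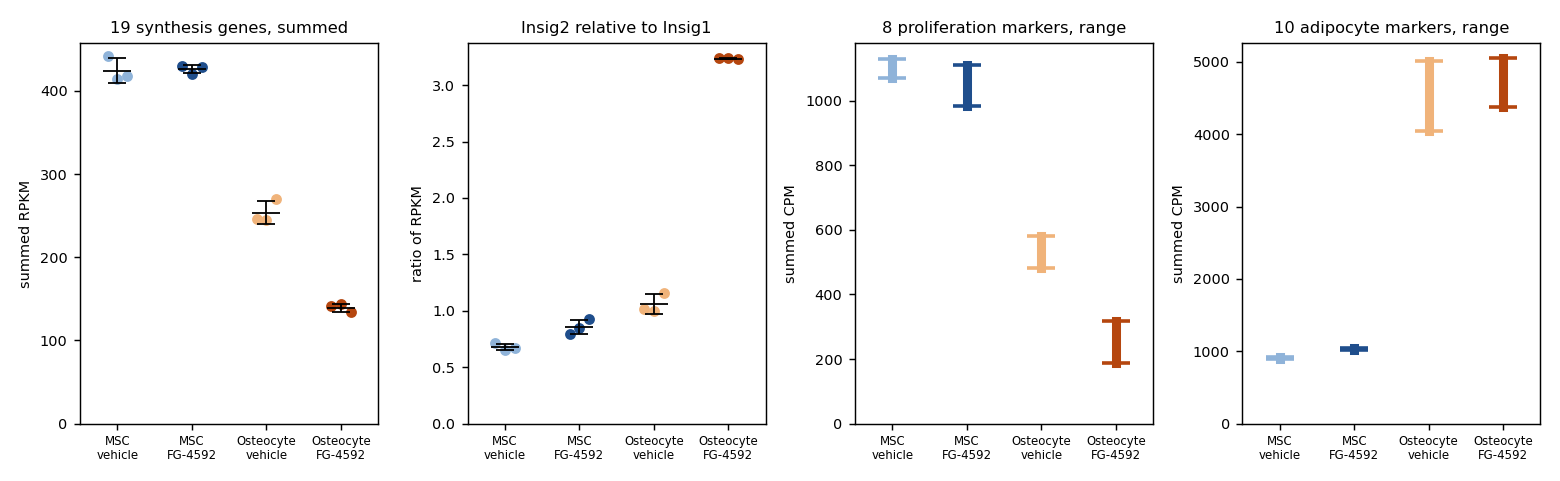
From left to right: RPKM of the 19 synthesis genes summed in each library, the ratio of Insig2 to Insig1 RPKM in each library (both with mean and SD, n = 3), and the lowest and highest summed CPM of the 8 proliferation and the 10 adipocyte markers over the 3 libraries of a condition. The synthesis sum and the proliferation markers are lowest, and the Insig2 ratio highest, in FG-4592-treated osteocytes, while the adipocyte markers overlap between the osteocyte groups.

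Of the 5 genes of movement and uptake, 4 rose in MSCs with FG-4592, where 17.6% of all genes did, and none rose in osteocytes, where 21.9% did. Stard4, a sterol carrier of the cytosol, had 112, 100.5 and 96.3 CPM in vehicle-treated and 165, 147 and 157 CPM in FG-4592-treated MSCs (0.60, SE 0.066, FDR = 1.8e-06). In osteocytes it had 46.5, 46.7 and 50.3 CPM and 33.2, 35.2 and 31.0 CPM (-0.53, SE 0.068, FDR = 8.18e-06). Its libraries thus moved without overlap in opposite directions. Tmem97, the sigma-2 receptor of the endoplasmic reticulum, rose in MSCs from 31.0, 29.0 and 30.9 CPM to 56.7, 54.7 and 58.6 CPM (0.90, SE 0.083, FDR = 2.58e-07). In osteocytes it had 23.8, 26.3 and 31.4 CPM and 24.7, 24.0 and 23.2 CPM, which overlapped (-0.18, FDR = 0.0942), though without vehicle-treated osteocyte replicate 1 the fall passed (-0.29, FDR = 0.00548). It also passed with upper-quartile factors (-0.22, FDR = 0.0433) and with library size alone (-0.28, FDR = 0.0113). Of the 50-base stretches of Tmem97, 20.8% occur in Gm5809.

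Npc1 and Npc2 together let cholesterol out of the lysosome. Npc1 rose by 1.21-fold in MSCs (0.27, SE 0.052, FDR = 0.000563), and in osteocytes it had 90.6, 83.5 and 85.3 CPM and 82.7, 76.0 and 85.5 CPM, which overlapped (-0.09, FDR = 0.202), though with library size alone the fall passed (-0.18, FDR = 0.0088). Npc2, the member with the highest level per length in every condition, fell in osteocytes from 1402, 1622 and 1675 CPM to 1053, 963 and 983 CPM (-0.65, SE 0.058, FDR = 1.55e-07). In MSCs it fell by 1.13-fold (-0.18, FDR = 0.0236), a call that was lost without vehicle-treated MSC replicates 1, 2 or 3, FG-4592-treated MSC replicates 2 or 3 or vehicle-treated osteocyte replicate 2 (-0.18 to -0.14, FDR 0.0539 to 0.14). Scarb1, the receptor that takes cholesterol from HDL, rose in MSCs from 87.1, 82.0 and 94.0 CPM to 115, 117 and 115 CPM (0.40, SE 0.069, FDR = 0.000221) and had 47.4, 51.5 and 59.0 and 56.8, 54.6 and 56.8 CPM in osteocytes (0.09, FDR = 0.325). All 5 interactions were negative and passed, Stard4 (-1.13) and Tmem97 (-1.08) past both cutoffs, where 11% of all genes were called in this direction and 1.07% past both cutoffs. The interaction of Scarb1 (-0.31, FDR = 0.0313) was lost without FG-4592-treated MSC replicates 1, 2 or 3 or FG-4592-treated osteocyte replicates 1 or 2 (-0.32 to -0.29, FDR 0.0507 to 0.0673).

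In MSCs FG-4592 lowered 3 of the 5 LXR and efflux genes and raised 1, where 20.4% of all genes fell and 17.6% rose. The 2 of the 34 genes past both cutoffs in MSCs, Nr1h3 and Abca1, were among them and fell, as 5.17% of all genes did. Abca1, the exporter that loads lipid onto nascent HDL (chr4:53030787-53159895), went from 42.4, 44.2 and 45.6 CPM in vehicle to 14.1, 14.0 and 15.8 CPM in FG-4592 (-1.59, SE 0.066, FDR = 1.58e-11). In osteocytes it had 179, 186 and 179 CPM and 176, 149 and 166 CPM, with all treated libraries lower but the test not passed (-0.15, FDR = 0.0646). This fall passed with RLE factors (FDR = 0.0477), upper-quartile factors (FDR = 0.0223), library size alone (FDR = 0.00473) and DESeq2 (FDR = 0.0399), and without vehicle-treated MSC replicates 1 (-0.16, FDR = 0.05) or 3 (-0.16, FDR = 0.0475) or FG-4592-treated osteocyte replicate 1 (-0.20, FDR = 0.0219). Abcg1, which exports cholesterol to mature HDL, was at 5.70, 5.56 and 6.10 CPM and 3.17, 3.81 and 2.55 CPM in the MSCs (-0.86, SE 0.16, FDR = 0.000352). In osteocytes it was at 12.2, 17.4 and 17.1 CPM and 17.1, 14.6 and 16.5 CPM, which overlapped (0.04, 95% interval -0.26 to 0.34).

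Nr1h3, which encodes LXR alpha (chr2:91184061-91202834), had 9.17, 8.20 and 9.29 CPM in vehicle-treated and 3.83, 4.13 and 4.29 CPM in FG-4592-treated MSCs (-1.12, SE 0.11, FDR = 3.62e-07). In osteocytes it had 27.0, 35.8 and 31.2 CPM and 36.7, 37.0 and 39.3 CPM, a small rise (0.27, FDR = 0.0281) that rested on single libraries. Without vehicle-treated osteocyte replicate 1, the lowest of its group, it was 0.15 (FDR = 0.195). The call was also lost without vehicle-treated MSC replicate 1, vehicle-treated osteocyte replicate 3 or FG-4592-treated osteocyte replicates 2 or 3 (0.23 to 0.28, FDR 0.0516 to 0.0968), with upper-quartile factors (FDR = 0.0541) and with library size alone (FDR = 0.169). Nr1h2, which encodes LXR beta, rose in MSCs from 66.2, 56.5 and 60.4 CPM to 71.2, 79.7 and 76.4 CPM (0.31, SE 0.07, FDR = 0.00196) and in osteocytes from 47.3, 54.3 and 47.2 CPM to 76.3, 81.5 and 82.8 CPM (0.69, SE 0.07, FDR = 6.27e-07). Per exonic length, Nr1h2 stood at 4.87 to 5.41 times Nr1h3 in vehicle-treated and at 13.3 to 14.5 times in FG-4592-treated MSCs, and at 1.14 to 1.32 and 1.56 to 1.65 times in the osteocytes. Mylip, an LXR target whose product marks lipoprotein receptors for degradation, had 41.4, 44.0 and 39.9 and 40.1, 41.0 and 41.1 CPM in the MSCs, which overlapped (-0.04, FDR = 0.717). The osteocytes had 37.1, 38.4 and 37.9 CPM and 27.6, 25.6 and 31.0 CPM (-0.43, SE 0.069, FDR = 8.01e-05).

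In the interaction, Abca1 (1.44, SE 0.089, FDR = 1.54e-08), Nr1h3 (1.39, SE 0.14, FDR = 3.18e-06), Abcg1 (0.91, SE 0.21, FDR = 0.00485) and Nr1h2 (0.38, SE 0.099, FDR = 0.0101) were positive and Mylip (-0.39, SE 0.097, FDR = 0.00689) negative. Together with Tm7sf2 these 4 were the only positive interactions called among the 34 genes, a share of 14.7% that is near the 13.3% of all genes. Abca1 and Nr1h3 passed both cutoffs in this direction, as did 3.94% of all genes. The call of Nr1h2 was lost without vehicle-treated MSC replicate 1 (0.27, FDR = 0.0674) or vehicle-treated osteocyte replicate 3 (0.29, FDR = 0.0565), and without the former 3 positive calls remained, since that of Tm7sf2 was lost as well (0.35, FDR = 0.161). Soat1, which esterifies cholesterol for storage, rose in MSCs from 193, 194 and 183 CPM to 271, 244 and 249 CPM (0.42, SE 0.05, FDR = 4.82e-06). In osteocytes it had 289, 309 and 305 and 310.3, 303 and 315 CPM, which overlapped (0.04, 95% interval -0.07 to 0.14), and its interaction was -0.38 (FDR = 0.000868).

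The cell types also differed without the drug. In vehicle-treated osteocytes 17 of the 19 enzymes were lower than in vehicle-treated MSCs and 2 were higher, where 24.9% and 26% of all genes were, and 10 enzymes were past both cutoffs, all lower, against 6.08% of all genes. The median log2 difference of the 19 was -1.01, that of all genes -0.01. The lowest were Fdps (-1.84), Mvd (-1.71) and Lss (-1.66), the 2 that were higher Ggps1 (0.24) and Sc5d (0.20). Srebf2 was lower (-0.82, SE 0.043, FDR = 1.77e-10) and Insig2 higher (0.51, SE 0.061, FDR = 3.22e-06). Insig1 differed by -0.13 (FDR = 0.021), and this call was lost without vehicle-treated MSC replicates 1, 2 or 3 or vehicle-treated osteocyte replicates 2 or 3 (-0.11 to -0.07, FDR 0.0812 to 0.266). For Dhcr7 (-0.35) the call was lost without vehicle-treated MSC replicate 3 (-0.27, FDR = 0.0555). Scap (0.05), Tmem97 (-0.16) and Mylip (-0.14) did not pass, although Tmem97 did without vehicle-treated osteocyte replicate 3 (-0.24, FDR = 0.0115) and Mylip with library size alone (-0.18, FDR = 0.0387).

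Of the 5 LXR and efflux genes, 3 were higher and 1 was lower in vehicle-treated osteocytes than in vehicle-treated MSCs, against 26% and 24.9% of all genes. Abca1 (2.04, SE 0.064, FDR = 2.62e-13), Nr1h3 (1.82, SE 0.099, FDR = 2.44e-10) and Abcg1 (1.43, SE 0.15, FDR = 6.5e-07) passed both cutoffs, the only ones of the 34 genes to do so upwards, where 9.83% of all genes did, and Nr1h2 was lower (-0.30). The Abca1 libraries stood between 42.4 and 45.6 CPM in the MSCs and between 179 and 186 CPM in the osteocytes, without overlap. Soat1 (0.66), Npc2 (0.35) and Npc1 (0.15) were higher as well, and Stard4 (-1.10) and Scarb1 (-0.74) lower. Adipocyte markers rose along the same axis: the 10 of them summed to 900 to 916 CPM in vehicle-treated MSCs and 4050 to 5010 CPM in vehicle-treated osteocytes, and with FG-4592 to 1020 to 1040 CPM in MSCs and 4380 to 5050 CPM in osteocytes, with Lep at the floor throughout and Retn in the MSCs. With FG-4592, 1 of the 9 tested rose and 3 fell in MSCs (median -0.50), against 17.6% and 20.4% of all genes, and 2 rose and none fell in osteocytes (median 0.01), against 21.9% and 22%. Proliferation markers fell along it, all 8 of them being lower, where 24.9% of all genes were. The part of either in these differences was not tested.

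Among the FG-4592-treated cells, which share their libraries with both drug responses, the distance was wider. Osteocytes were lower than MSCs in 17 of the 19 enzymes and higher in none, where 25.3% and 30.5% of all genes were, and 15 enzymes passed both cutoffs, all lower, against 5.64% of all genes (median -1.86, that of all genes 0.03). Fdps differed 13.2-fold (-3.72), Idi1 8.71-fold (-3.12) and Msmo1 5.49-fold (-2.46). Stard4 (-2.24), Insig1 (-1.63), Srebf2 (-1.29), Tmem97 (-1.24) and Scarb1 (-1.04) were also lower past both cutoffs. Abca1 was 11.2-fold (3.48), Nr1h3 9.22-fold (3.20) and Abcg1 5.04-fold (2.33) higher. Scap differed by 0.14 (FDR = 0.0342), which was lost without vehicle-treated MSC replicates 1, 2 or 3, FG-4592-treated MSC replicates 1 or 3, vehicle-treated osteocyte replicates 1 or 3 or FG-4592-treated osteocyte replicates 1 or 2 (0.12 to 0.14, FDR 0.052 to 0.122), and under all scaling alternatives, with no filter and with DESeq2 (0.09 to 0.13, FDR 0.0559 to 0.183). Npc2 did not pass (-0.12, FDR = 0.0816), but did without vehicle-treated osteocyte replicates 1 or 3 or FG-4592-treated osteocyte replicate 1 (-0.16 to -0.14, FDR 0.00955 to 0.044), and with upper-quartile factors, library size alone, no filter, only the libraries compared and DESeq2 (-0.17 to -0.13, FDR 0.0161 to 0.0457).

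Over all 34 genes, FG-4592 raised 3 (8.82%) and lowered 22 (64.7%) in osteocytes, against 21.9% and 22% of all genes. In MSCs it raised 11 (32.4%) and lowered 9 (26.5%), against 17.6% and 20.4%, so that the share lowered was near that of all genes. Those that fell in both cell types were Dhcr7, Ebp, Mvk, Npc2 and Nsdhl, and those that rose in both were Insig2 and Nr1h2. How many of all genes fell or rose in both was not counted. FG-4592-treated osteocytes held the lowest mean level of the 4 conditions for 24 of the 34 genes, and FG-4592-treated MSCs for Abca1, Abcg1, Nr1h3 and Scap. The shares of all genes so placed were not counted. Compared per length, Npc2 (227 ± 3.88 RPKM, SD, n = 3), Hmgcs1 and Insig1 (47.3 ± 1.58) had the highest levels in vehicle-treated MSCs. In FG-4592-treated osteocytes the order was Npc2 (184 ± 8.75), Insig2 (74.4 ± 0.76) and Soat1 (31.6 ± 0.64), and Hmgcs1 had gone from the second to the sixth place. Insig1 (23.0 ± 0.20) and Nr1h2 (23.9 ± 1.02) were neighbours in that order whose libraries overlapped.

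Neighbouring genes of the pathway were counted in the same way, without a test against the enzymes. Of 12 genes tested that cleave, retain or degrade parts of the SREBP machinery, 4 rose and 2 fell in MSCs and 5 rose and 2 fell in osteocytes with FG-4592. Past both cutoffs was Rnf145, an LXR-induced ubiquitin ligase, which had 72.9 to 78.0 CPM in vehicle-treated and 161 to 168 CPM in FG-4592-treated MSCs, and 70.0 to 75.5 and 152 to 163 CPM in osteocytes. It rose by 1.11 (SE 0.049, FDR = 2.85e-11) in MSCs and by 1.13 (SE 0.049, FDR = 1.77e-11) in osteocytes on the log2 scale. Of 15 genes that use isoprenoids for dolichol, ubiquinone and protein prenylation, 4 rose and 3 fell in MSCs and 2 rose and 4 fell in osteocytes, none past the fold cutoff, with medians of 0.03 and -0.07. Of 9 other LXR targets, among them Rnf145, 3 rose and 4 fell in MSCs and 3 rose and 3 fell in osteocytes (medians -0.34 and 0.01), and in vehicle 4 were higher and 1 lower in osteocytes than in MSCs, against 26% and 24.9% of all genes. Of all genes, 17.6% rose and 20.4% fell in MSCs and 21.9% rose and 22% fell in osteocytes, and nothing particular to these short lists is read from their counts.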

How the data were processed

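With STAR 2.7.2a, the authors aligned read pairs (100 bases a read) to mm10, and they counted uniquely mapped reads (mapping quality of at least 10) on Gencode M22 genes with featureCounts 1.6.2, each pair for every gene it overlapped and with no strand option. The authors deposited these raw counts per gene and library with the exonic length of each gene, and no fold changes or p-values were used. The 34 genes and all lists were chosen with earlier results of these data known.

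All 12 libraries entered a single fit (edgeR 4.0.16, R 4.3.3) with TMM normalization, a term per condition (8 residual degrees of freedom), the quasi-likelihood test and adjustment over the 16484 genes above 10 counts in 3 or more libraries. SEs were taken as the log2 fold change over the root of the F statistic. The fit was tested on simulated data. Every member is named, and values of each library were given for members past both cutoffs in a drug response or in their difference and for a fixed set of control and efflux genes. In other lists, the genes with the largest drug response past both cutoffs were named. Values of other members were chosen after they were seen.

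Alternatives were scaling by RLE, by upper quartile or by library totals only, the filterByExpr filter or none, fits restricted to the compared libraries, DESeq2 1.42.0, the replicate number as a term, removal of genes that share exonic bases, and each library left out in turn. Exon overlaps came from the deposited coordinates, and 50-base stretches from Gencode M21 transcripts. Promoters came from RefSeq (GRCm38.p6), 27 of 34 members being matched. The labels name no batch. No pair of libraries of a condition was a repeat of the other within sampling noise.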

Additional observations from a re-analysis of the deposited data

Results flagged for a closer look

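The response to FG-4592 differed between the cell types, by the interaction test in edgeR, for 29 of the 34 genes, 24 with a lower and 5 with a higher response in osteocytes, where 11% and 13.3% of all genes were so called. The values given are the log2 fold change in osteocytes minus that in MSCs. Among the enzymes of synthesis the difference was largest for Idi1 (-1.88), Fdps (-1.88), Cyp51 (-1.80), Msmo1 (-1.42), Hmgcs1 (-1.32) and Sc5d (-1.22). Smaller negative differences were found for Sqle (-0.95), Dhcr7 (-0.91), Fdft1 (-0.81), Mvd (-0.68), Hsd17b7 (-0.62), Nsdhl (-0.58), Acat2 (-0.54), Lss (-0.27) and Ggps1 (-0.23).

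Outside synthesis, the response was lower in osteocytes for Insig1 (-1.50), Stard4 (-1.13), Tmem97 (-1.08), Srebf2 (-0.48), Npc2 (-0.47), Mylip (-0.39), Soat1 (-0.38), Npc1 (-0.36) and Scarb1 (-0.31). It was higher in osteocytes for Abca1 (1.44), Nr1h3 (1.39), Abcg1 (0.91), Tm7sf2 (0.48) and Nr1h2 (0.38). Of these 29 calls, 24 were kept under every alternative that could be run for them, and those of Tm7sf2, Ggps1, Lss, Scarb1 and Nr1h2 were not.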

How the results depend on the processing

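Of the 3481 values of single genes under an alternative, 3364 kept their side of the FDR threshold, 79 lost and 38 gained a call. None that was called changed sign. Some that were not called did, such as Hmgcs1 in MSCs (0.07 in the main fit and -0.01 at the lowest). Calls of 17 of 20 genes in MSCs, 22 of 25 in osteocytes, 28 of 31 between the cell types in vehicle, 29 of 30 in FG-4592 and 24 of 29 in the difference between the responses were kept under every alternative. With library size alone, 14 in place of 9 genes fell in MSCs. Leaving out genes with shared exonic bases takes out 11 of the 34 by its construction. It left 5 genes that fell in MSCs, 1 of them past both cutoffs, since Tm7sf2 and Nr1h3 were taken out and Mvk (FDR = 0.0579) and Npc2 (FDR = 0.0928), which share no exonic bases, lost their calls, and 2 that fell past both cutoffs in osteocytes. Between the cell types in vehicle it left 14 that were lower and 5 past both cutoffs (the call of Insig1, which shares no exonic bases, was lost with FDR = 0.126), and in the difference between the responses 3 that were positive and 1 past both cutoffs. Leaving out each library in turn gave 3 to 4 positive differences between the responses, 3 without vehicle-treated MSC replicate 1. For the 3 calls named in the report as lost with single libraries in MSCs (Mvk, Msmo1, Npc2) and for Npc1 in vehicle, which was lost with upper-quartile factors (0.13, FDR = 0.0516), library size alone (0.11, FDR = 0.0885) and no filter (0.13, FDR = 0.144), the differences are small. Libraries with the same replicate number did not deviate together (18 pairs, r from -0.135 to 0.0543, none over 0.1), so the numbers were not taken to pair the libraries. With the replicate block, 4 in place of 5 differences between the responses were positive, Tm7sf2 being lost (0.49, FDR = 0.0576), and no other call of the 34 genes changed. In osteocytes the replicate block left 22 lower and 3 higher. The smallest p that exact permutation of 3 libraries against 3 can give for 1 gene is 0.1, so the calls rest on the spread shared by all genes in the fit. At the depth of these libraries the low members Fdps and Abcg1 have the widest errors.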

Other observations

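Genes of fatty acid synthesis and of sterol handling beyond the 34 were listed as neighbours of the pathway. Of 16 genes of SREBP1 and fatty acid synthesis, 4 rose and 9 fell in MSCs with FG-4592, and 4 rose and 11 fell in osteocytes, 6 of them past both cutoffs (against 4.26% of all genes) and none so in MSCs (5.17%). Of all genes, 17.6% rose and 20.4% fell in MSCs and 21.9% rose and 22% fell in osteocytes, so that the shares of this list that rose (25% in each) were near those of all genes, while 56.2% and 68.8% fell. Elovl6, a fatty acid elongase, had 29.1, 23.4 and 26.3 CPM in vehicle-treated and 7.54, 7.19 and 7.51 CPM in FG-4592-treated osteocytes (log2 fold change -1.82, SE 0.10, FDR = 4.02e-10). Mid1ip1, an activator of acetyl-CoA carboxylase, had 36.2, 44.5 and 44.7 CPM and then 15.4, 15.6 and 16.2 CPM (-1.41, SE 0.087, FDR = 1.62e-09), and Pnpla3, a lipase of lipid droplets, fell with a wide error (-1.65, SE 0.43, FDR = 0.00649). Srebf1 itself, which encodes SREBP1, went the other way, from 46.0 to 52.4 CPM in vehicle-treated to 79.1 to 85.6 CPM in FG-4592-treated osteocytes (0.72, FDR = 1.24e-06), and it was chosen after its value was seen.

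Of 21 tested genes of oxysterol and sterol handling, 4 rose and 4 fell in MSCs and 4 rose and 2 fell in osteocytes. These counts are near or below those shares of all genes and show nothing particular to the list. Vldlr, a receptor for lipoproteins, rose in MSCs from 16.1 to 19.6 CPM to between 175 and 192 CPM (3.38, SE 0.081, FDR = 1.95e-14) and in osteocytes from 1.65 to 2.11 CPM to between 51.6 and 58.2 CPM (4.86, SE 0.10, FDR = 1.78e-15), without overlap in either cell type.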
